A study of Mus musculus with 6 samples.

Results

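Hdc and 9 further genes of basophils and mast cells were followed in sorted blood-forming progenitors of mice after acute loss of Ctcf. The set was named by gene function and holds histamine synthesis (Hdc), granule proteases (Mcpt8, Cpa3, Prss34, Cma1, Tpsb2), subunits of the high-affinity IgE receptor (Fcer1a, Ms4a2), a cytokine (Il4) and the receptor gene Il1rl1. Each gene was represented by its brightest probe set with a single gene symbol, by the mean over all arrays. In this way 9 of the 10 genes were measured among 22180 genes, and Il1rl1 was not analysed here. Probe sets were thus chosen by brightness over both groups. The set itself was chosen with earlier results of the knockout minus WT contrast known, those of Hdc and Mcpt8 among them. The values of its genes in that contrast are therefore a description.

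LSK cells, which lack lineage antigens and carry Sca-1 and high c-Kit, were sorted from the bone marrow of male mice aged 8 weeks. The control group is labelled WT, with 3 arrays, and the other group Ctcf conditional KO (cKO), in which the deletion is induced by tamoxifen, also with 3 arrays. All mice were injected intraperitoneally with 2 mg of tamoxifen daily on 3 days, and marrow was taken 24 hours after the last dose. CreER mice are mentioned in the design text, but the control arrays are labelled WT, so it remains unclear whether the controls carried CreER. Neither the promoter driving CreER nor the deleted exons of Ctcf are given in the labels. RNA was hybridised to Affymetrix Mouse Gene 2.0 ST arrays, each labelled a biological replicate, and values are log2 probe set levels. The labels do not say whether animals were pooled for an array.

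Basophils and mast cells are granule-bearing cells of allergy and parasite defence. They carry the high-affinity IgE receptor, and its cross-linking releases stored histamine and proteases and starts the making of lipid mediators and cytokines. Both arise from progenitors in the marrow in which the transcription factor Gata2 acts, and mast cells mature in tissues under the Kit receptor. Histamine is made from histidine by the enzyme that Hdc encodes, and Hdc is also active in immature myeloid cells of the marrow.

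Ctcf, the gene targeted, was at log2 levels of 8.35, 8.59 and 8.73 in WT and 7.58, 7.78 and 7.86 in the knockout. The groups did not overlap, and the log2 difference, knockout minus WT, was -0.82 (SE 0.13, limma adjusted p = 0.104), which missed the threshold of 0.05. Among genes that mark LSK cells, Kit lay between 10.22 and 10.65 in WT and between 10.12 and 10.21 in the knockout, and Cd34 between 11.93 and 12.02 and between 11.78 and 12.04. All 10 measured LSK markers had a mean above 6.29, the median of all genes' means. Ly6a, which encodes Sca-1, was not analysed here. Of the lineage markers, 2 of 10 T and NK cell genes and 9 of 10 B and plasma cell genes also lay above that median, among them Ighm at 13.54 to 14.04 in WT. So did 7 of 7 neutrophil and monocyte progenitor, 6 of 10 maturing neutrophil and 8 of 9 monocyte and dendritic cell genes. For megakaryocyte, erythroid and eosinophil genes it was 6 of 6, 3 of 4 and 1 of 8. Centred on each gene's mean over the arrays, the LSK markers averaged 0.00 to 0.13 in WT and -0.09 to -0.01 in the knockout. No detection call comes with these values, so a low level does not show that a transcript is absent.

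RefSeq promoter sequences, on build GRCm38.p6, were found for 8 of the 9 measured genes. The 250 bases before the start site are printed for the genes whose groups separated, Hdc and Mcpt8, and for Cpa3 and Ms4a2, which share the mast cell and basophil programme without separating. Capitals mark GATAA on either strand, a form of the letters bound by GATA factors. Other forms were not counted, such as GATAG, which the Hdc window holds in lower case.
Hdc, chr2:126618679-126618928, minus strand: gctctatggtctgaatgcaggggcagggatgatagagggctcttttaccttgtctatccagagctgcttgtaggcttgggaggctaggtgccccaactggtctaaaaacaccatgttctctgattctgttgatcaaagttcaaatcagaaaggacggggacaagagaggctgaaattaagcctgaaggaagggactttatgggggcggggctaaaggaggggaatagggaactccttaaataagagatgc
Mcpt8, chr14:56085198-56085447, minus strand: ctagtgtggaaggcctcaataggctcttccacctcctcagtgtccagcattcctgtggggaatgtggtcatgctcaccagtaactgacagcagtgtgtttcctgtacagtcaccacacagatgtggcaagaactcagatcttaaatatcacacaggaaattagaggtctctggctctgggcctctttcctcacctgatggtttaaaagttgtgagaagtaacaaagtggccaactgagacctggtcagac
Cpa3, chr3:20242182-20242431, minus strand: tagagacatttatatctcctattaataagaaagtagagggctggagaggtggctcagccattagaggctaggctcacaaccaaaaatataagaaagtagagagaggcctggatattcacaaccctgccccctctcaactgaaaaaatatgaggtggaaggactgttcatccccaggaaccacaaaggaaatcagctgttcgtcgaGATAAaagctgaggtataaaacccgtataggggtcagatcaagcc
Ms4a2, chr19:11623720-11623969, minus strand: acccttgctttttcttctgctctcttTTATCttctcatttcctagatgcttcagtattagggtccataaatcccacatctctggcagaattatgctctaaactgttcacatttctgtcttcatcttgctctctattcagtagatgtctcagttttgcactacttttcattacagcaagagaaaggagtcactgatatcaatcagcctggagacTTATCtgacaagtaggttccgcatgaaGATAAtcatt

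The windows of Hdc and Mcpt8 hold no GATAA, which says only that these letters are not in these 250 bases. That of Ms4a2 holds 3 matches, and those of Cpa3, Fcer1a, Cma1 and Prss34 hold 1 each. In all, 5 of the 8 genes with a promoter have at least 1 match, against 22.6% of 32851 promoter windows of the same length. The E-box letters CANNTG, on either strand, are in 7 of the 8, against 66.2% of all windows. AGNNGGC, which spans part of the core bound by CTCF, is in 5 of the 8, against 52.5%. The STAT letters TTCNNNGAA are in 0 of the 8, against 7.02%. For Il4, which has more than 1 start site, the first listed was counted. A match is a description and not a site.

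Hdc rose after Ctcf loss and had the largest positive difference of all 22180 genes in this fit. Its log2 level was 6.20, 5.76 and 6.45 in WT replicates 1, 2 and 3 and 8.22, 9.06 and 8.09 in the knockout. All knockout arrays lay above all WT arrays, with a gap of 1.64 between the lowest knockout and the highest WT array. The means were 6.14 ± 0.35 and 8.45 ± 0.52 (SD, n = 3 each), and the log2 difference was 2.32 (SE 0.26, 95% interval 1.71 to 2.92), or 4.98-fold. By limma with Benjamini-Hochberg adjustment over all genes its adjusted p was 0.0309. The call was kept in 1 of 6 fits with 1 array left out, and why it was lost in the others was not tested. With 1 array left out at a time the difference stayed between 2.02 and 2.50, and the adjusted p was 0.0402 without knockout replicate 2. It was 0.0676 when knockout replicate 3 was dropped and 0.0781 when knockout replicate 1 was. Dropping WT replicate 3, 2 or 1 gave 0.0564, 0.109 and 0.171. In such bulk samples more cells of a type and more RNA per cell cannot be told apart, nor can fewer cells and less RNA per cell.

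The other genes of histamine storage, breakdown and reception showed no such difference. Slc18a2, the vesicular transporter that loads histamine into granules, stood at 8.97, 9.48 and 8.60 in WT and 8.47, 8.65 and 8.60 in the knockout, with overlapping groups and a log2 difference of -0.44 (SE 0.20, limma adjusted p = 0.632). The histamine receptor gene Hrh2 differed by -0.20 (SE 0.12), with overlapping groups. Of the histamine-degrading enzymes Hnmt differed by 0.12 and Aoc1 by -0.14, and the remaining receptor genes Hrh1, Hrh3 and Hrh4 by 0.16, 0.01 and -0.04. Differences were positive for 5 and negative for 5 of the 10 measured genes of the histamine list, and their median was 0.00, beside 0.02 over all genes. Hdc alone passed the test. Slc22a3, a further histamine transporter gene, was not analysed here.

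Mcpt8, the granule protease that marks mouse basophils, was the second gene of the set whose groups separated. It stood at 7.02, 6.96 and 7.26 in WT and 8.18, 8.48 and 7.92 in the knockout. The gap between the lowest knockout and the highest WT array was 0.66. The means were 7.08 ± 0.16 and 8.19 ± 0.28 (SD, n = 3 each), and the log2 difference was 1.11 (SE 0.16, 95% interval 0.76 to 1.47), or 2.16-fold. It missed the threshold over all genes, with a limma adjusted p of 0.0708, and ranked 21 among 22180 genes by p. Its adjusted p lay between 0.0425 and 0.250 over the alternatives.

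The remaining proteases of the set had overlapping groups. Cpa3, the mast cell carboxypeptidase, was at 9.75, 8.89 and 9.62 in WT and 10.27, 10.03 and 9.30 in the knockout, a log2 difference of 0.45 (SE 0.28, limma adjusted p = 0.753). Its lowest knockout array, replicate 3, lay below WT replicates 1 and 3. Prss34, a serine protease of basophils and mast cells, stood at 6.89, 6.59 and 6.43 in WT and 6.52, 6.32 and 6.45 in the knockout, with a negative difference of -0.21 (SE 0.14). This is opposite in sign to that of Mcpt8. Cma1, the chymase of connective tissue mast cells, was at 4.17, 4.29 and 4.42 in WT and 5.19, 4.68 and 4.13 in the knockout, and differed by 0.38 (SE 0.23). The last knockout value lies below every WT array. Tpsb2, a mast cell tryptase, was at 5.57, 5.32 and 5.63 in WT and 6.06, 5.46 and 5.42 in the knockout, and differed by 0.14 (SE 0.18). Without knockout replicate 1 the Tpsb2 difference was -0.07. A probe set may not separate the close copies of the tryptase and chymase families, so the values of Tpsb2 and Cma1 are uncertain in that respect.

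Differences were positive for 6 and negative for 6 of the 12 measured granule proteases, and their median was 0.06. The test over all genes was passed by 0 of them, beside 0.0721% of all genes. At an unadjusted p under 0.05 there were 2 higher, one of them Mcpt8, whose difference was known beforehand, and 1 lower, beside 5.03% and 3.08% of all genes. Mcpt4, another mast cell chymase, was at 4.08, 2.95 and 2.98 in WT and 4.25, 3.71 and 4.18 in the knockout. Its difference of 0.71 (SE 0.29, limma adjusted p = 0.590) came with overlapping groups, since WT replicate 1 lay above knockout replicate 2. Cma2 differed by -0.39 (SE 0.15), Tpsab1 by -0.05 and Tpsg1 by -0.06.

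Neither measured subunit gene of the high-affinity IgE receptor that is restricted to these lineages passed the test. Both were dim, with means over the arrays of 3.88 for Fcer1a and 5.54 for Ms4a2, below the median of 6.29. RMA compresses differences of such probe sets. Fcer1a, the chain that binds IgE, was at 3.56, 3.54 and 3.97 in WT and 4.47, 4.06 and 3.70 in the knockout, a log2 difference of 0.38 (SE 0.20, 95% interval -0.08 to 0.84, limma adjusted p = 0.684). Ms4a2, the signal-amplifying beta chain, was at 5.32, 5.28 and 5.83 in WT and 5.67, 5.66 and 5.52 in the knockout, a difference of 0.14 (SE 0.16, 95% interval -0.21 to 0.50). In both genes WT replicate 3 lay above knockout replicate 3, so the groups overlapped. The shared gamma chain Fcer1g, which also serves other Fc receptors, stood at 10.75, 10.28 and 10.55 in WT and 11.11, 10.81 and 10.36 in the knockout, a difference of 0.23 (SE 0.20). In the list of the receptor and its signalling, 10 of 16 measured genes differed positively and 6 negatively, and the median was 0.08. The test was passed by 0 of them, beside 0.0721% of all genes. Lat2, an adaptor downstream of the receptor, was lower in every knockout array, at 8.23, 8.28 and 8.17 in WT and 8.02, 7.99 and 7.90 in the knockout. Its difference was -0.26 (SE 0.10, limma adjusted p = 0.578).

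Il4, the type 2 cytokine that activated basophils release, was at 4.94, 5.21 and 5.08 in WT and 4.78, 4.94 and 5.02 in the knockout. The groups overlapped and the log2 difference was -0.17 (SE 0.12, limma adjusted p = 0.786). Its neighbours in the type 2 cytokine cluster gave -0.04 for Il13 and 0.22 for Il5. Of 12 measured cytokine and chemokine genes 0 passed the test, beside 0.0721% of all genes. Tnf was at 7.47, 7.02 and 7.47 in WT and 7.90, 7.65 and 7.66 in the knockout, without overlap (0.41, SE 0.15, limma adjusted p = 0.544). Ccl4 was at 7.06, 7.57 and 7.05 in WT and 6.64, 6.81 and 7.03 in the knockout, also without overlap (-0.40, SE 0.17). Ccl3, a chemokine of activated mast cells and of many other myeloid cells, differed by -0.85 with a wide error (SE 0.48).

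Taking the 9 measured genes of the set, 1 passed the test, Hdc, in the higher direction. Among all genes 0.0271% passed in that direction and 0.0721% in either. The groups did not overlap for 2 of the 9, both higher in the knockout, beside 13.3% of all genes in either direction and 7.96% in this one. At an unadjusted p under 0.05 there were also 2, beside 8.11% of all genes. As the set was chosen with the contrast known, nothing is read from these shares. The median difference of the 9 genes was 0.38, beside 0.02 over all genes, and without Hdc and Mcpt8 the median of the other 7 was 0.14. These 7 had overlapping groups and 95% intervals that included 0, the widest reaching from -0.20 to 1.09 for Cpa3. Only 2 of the 7 had a mean above 6.29, the median of all genes' means. The median over the 9 moved with single arrays, to 0.12 without knockout replicate 1, 0.18 without WT replicate 2 and 0.57 without knockout replicate 3. The plot of all arrays shows the 2 separated genes beside the 7 that overlap.

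**Figure D1:**
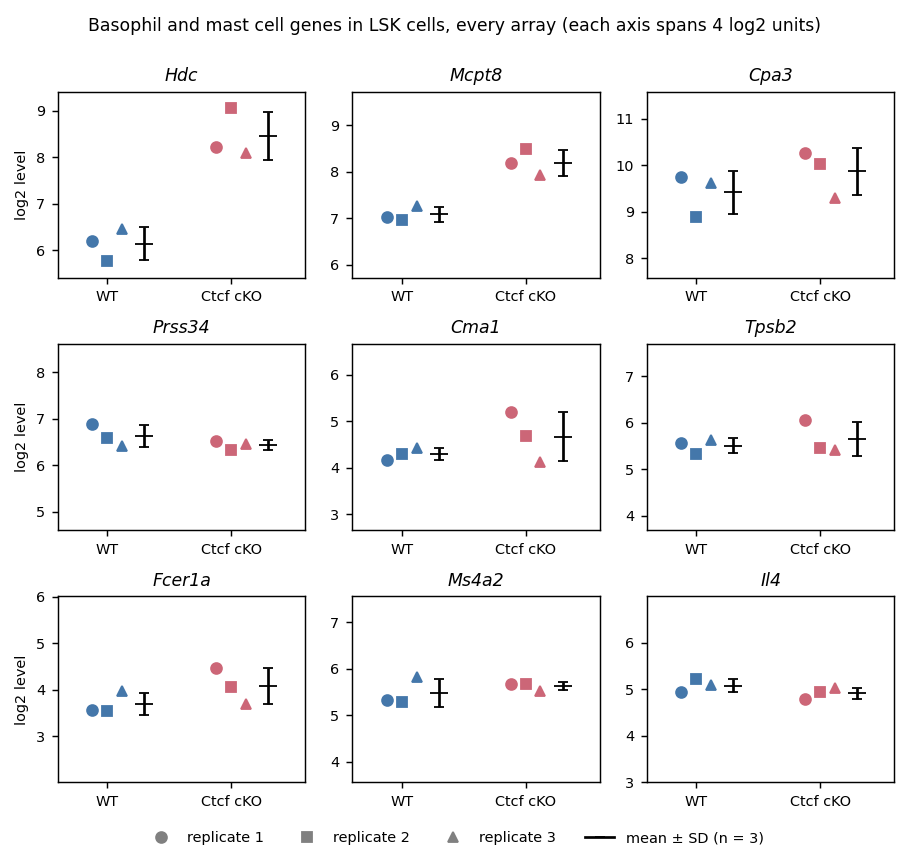
Log2 probe set level of the 9 measured genes (vertical axes, each spanning the same range) on the 3 WT arrays (blue) and the 3 Ctcf cKO arrays (red), with symbols for the replicates and bars for mean ± SD. Hdc is at 5.76 to 6.45 in WT and 8.09 to 9.06 in the knockout and Mcpt8 at 6.96 to 7.26 and 7.92 to 8.48, while the groups overlap for the other 7 genes.

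Of the 16 measured surface receptors through which basophil and mast cell progenitors are driven 0 were called, beside 0.0721% of all genes. There were 4 positive and 12 negative differences, with a median of -0.07. Il3ra, the alpha chain of the interleukin-3 receptor, differed by -0.01, and its shared beta chains Csf2rb and Csf2rb2 by 0.01 and -0.34 (SE 0.13 and 0.23). Kit differed by -0.22 (SE 0.13) without overlap, in cells sorted for high c-Kit. The basophil receptor gene Cd200r3 was at 5.47, 5.30 and 5.33 in WT and 5.17, 5.15 and 5.09 in the knockout, without overlap (-0.23, SE 0.10, limma adjusted p = 0.625). Mrgprb2, the receptor of connective tissue mast cells for basic secretagogues, differed by 0.08.

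Among 19 measured transcription factors of these lineages 0 passed the test, beside 0.0721% of all genes, and the median was -0.03. Gata2 was the factor with the largest positive difference. It was at 8.95, 8.91 and 9.01 in WT and 9.29, 9.35 and 9.27 in the knockout, so that the groups did not overlap. The difference was 0.34 (SE 0.10, 95% interval 0.12 to 0.57, limma adjusted p = 0.418), and it stayed between 0.29 and 0.37 over the alternatives. Mitf, a regulator of mast cell granule genes, differed by 0.21 (SE 0.13) without overlap, and Gata1 by 0.12 (SE 0.18) with overlap. Irf8, a factor of monocyte and basophil progenitors, differed by -0.27 (SE 0.19), Cebpa by 0.10, Id2 by 0.21 (SE 0.32), Stat5a by 0.05 and Stat5b by -0.04.

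Differences were positive for 10 and negative for 4 of the 14 measured genes of the granule matrix, exocytosis and lipid mediators. Their median was 0.18, and 0 were called, beside 0.0721% of all genes. Pla2g4a, the phospholipase that frees arachidonic acid, was at 8.48, 8.36 and 8.74 in WT and 8.90, 9.15 and 9.04 in the knockout. Its difference was 0.50 (SE 0.13, limma adjusted p = 0.365), without overlap. Alox5ap, which presents arachidonic acid to 5-lipoxygenase, differed by 0.30 (SE 0.12) without overlap, and the secretory GTPase gene Rab27a by 0.42 (SE 0.23) with overlap. Ptgs2 differed by 0.41 (SE 0.27) with overlap. In contrast Hpgds, the prostaglandin D2 synthase of mast cells, was lower in every knockout array (-0.23, SE 0.11), and Srgn, the proteoglycan core of the granule, differed by 0.00. The 90 measured pathway genes outside the set had a median difference of -0.02. At an unadjusted p under 0.05 there were 5 higher and 3 lower, beside 5.03% and 3.08% of all genes, and without overlap 8 higher and 6 lower, beside 7.96% and 5.32%.

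**Figure D2:**
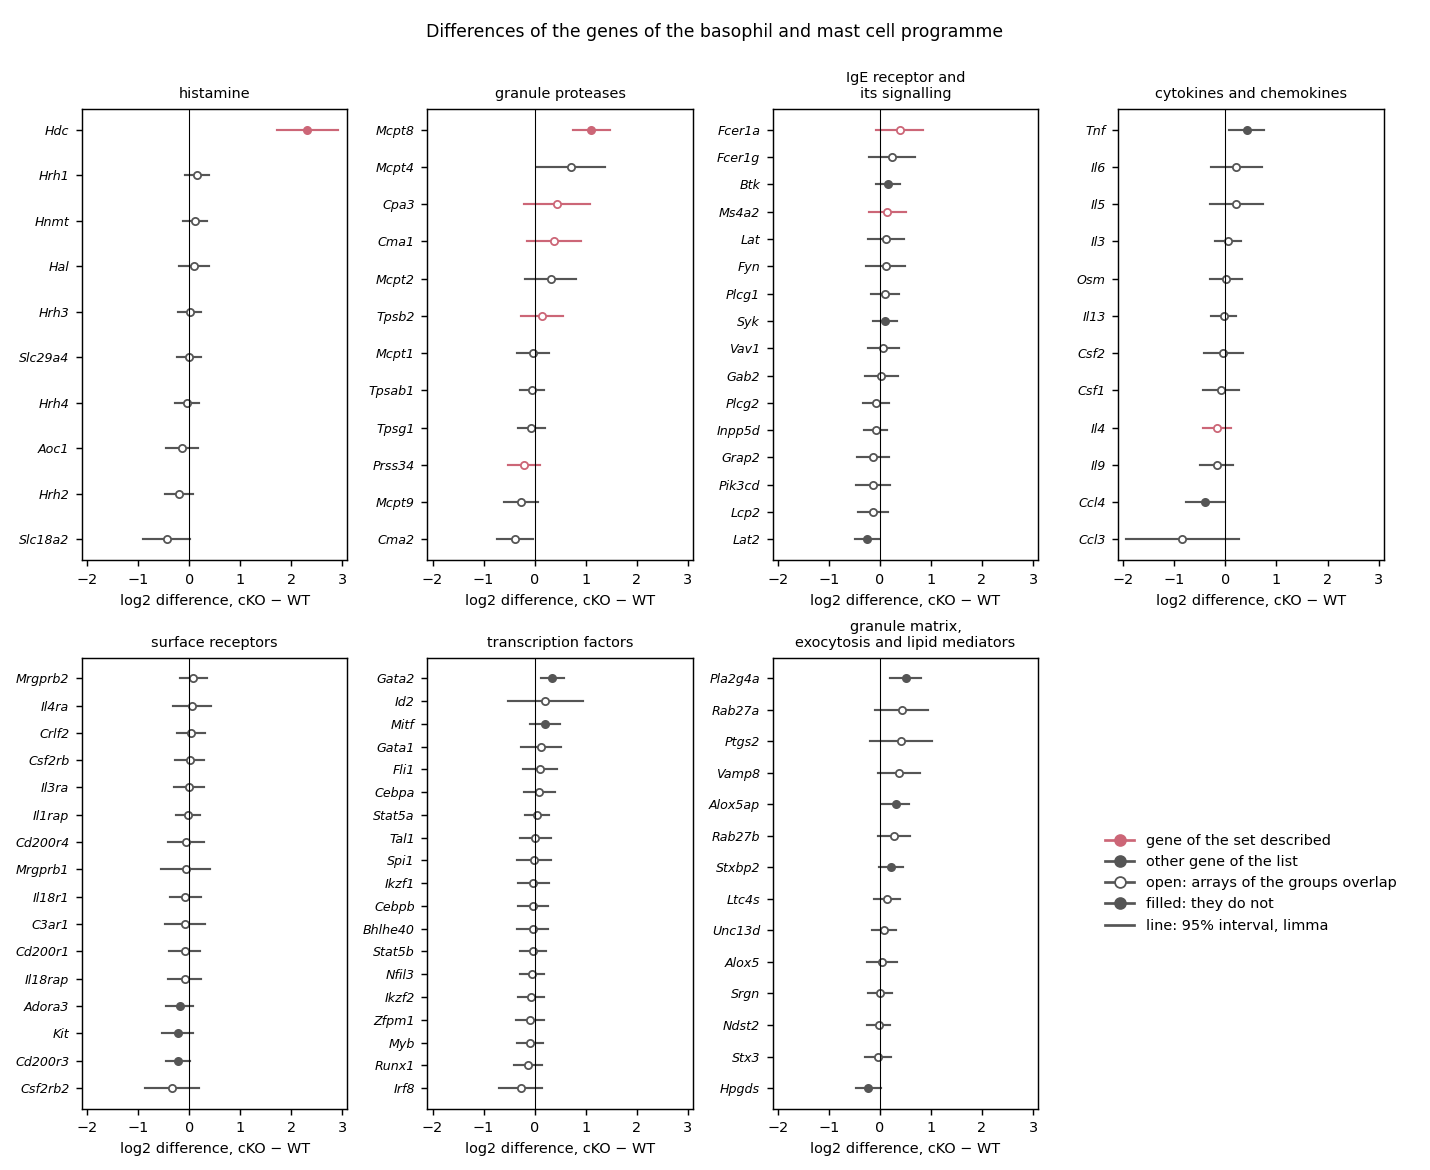
Log2 difference, knockout minus WT (horizontal axes), with its 95% interval from limma for every measured gene of the 7 pathway lists, genes of the described set in red and genes whose arrays do not overlap between groups filled. Hdc at 2.32 and Mcpt8 at 1.11 are the 2 highest points drawn, and Mcpt4 at 0.71 is the next.

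Hdc and Mcpt8 also had the same order of arrays. In WT replicate 3 was highest and replicate 2 lowest for both genes, and in the knockout replicate 2 was highest and replicate 3 lowest for both. Knockout replicate 3 was the lowest knockout array for 7 of the 9 genes, Hdc and Mcpt8 among them. The highest knockout array was replicate 1 for 6 of the other 7 genes and replicate 3 for Il4. Over the 6 arrays the Pearson correlation with Hdc was 0.99 for Mcpt8, 0.63 for Fcer1a, 0.62 for Cpa3, 0.53 for Cma1, 0.50 for Ms4a2, 0.27 for Tpsb2, -0.64 for Prss34 and -0.65 for Il4. With the mean of each group subtracted it was 0.919 for Mcpt8, 0.575 for Cpa3, 0.556 for Ms4a2, 0.293 for Fcer1a, 0.163 for Cma1, -0.025 for Tpsb2, -0.212 for Il4 and -0.396 for Prss34. These are descriptions of 6 arrays that fall in 2 groups, which alone gives high values to any gene that differs between the groups.

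The genes most like Hdc, among those with a mean above the median of all genes' means, were Zfp512, Sec22c, Gata2, Mcpt8, Naa35, Emilin2, Mtus1 and Ndrg2, with Pearson correlations from 0.984 to 0.995 over the 6 arrays. Within groups their correlations with Hdc lay between 0.885 and 0.965. For all 8 the groups did not overlap, beside 13.3% of all genes. Non-overlap and high correlation within groups follow largely from choosing genes by their correlation with Hdc, so nothing is read from them. Mtus1, with means of 6.14 in WT and 6.79 in the knockout, met the brightness cut through its knockout arrays. The differences of the 8 genes were of unlike size. Emilin2, an extracellular matrix protein gene, was at 7.37, 7.32 and 7.42 in WT and 8.05, 8.48 and 8.02 in the knockout, a difference of 0.81 (SE 0.14, limma adjusted p = 0.115). Mtus1 differed by 0.66, Sec22c by 0.36, Ndrg2 by 0.33, Naa35 by 0.23 and Zfp512 by 0.14, and none of the 8 passed the test over all genes.

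**Figure D3:**
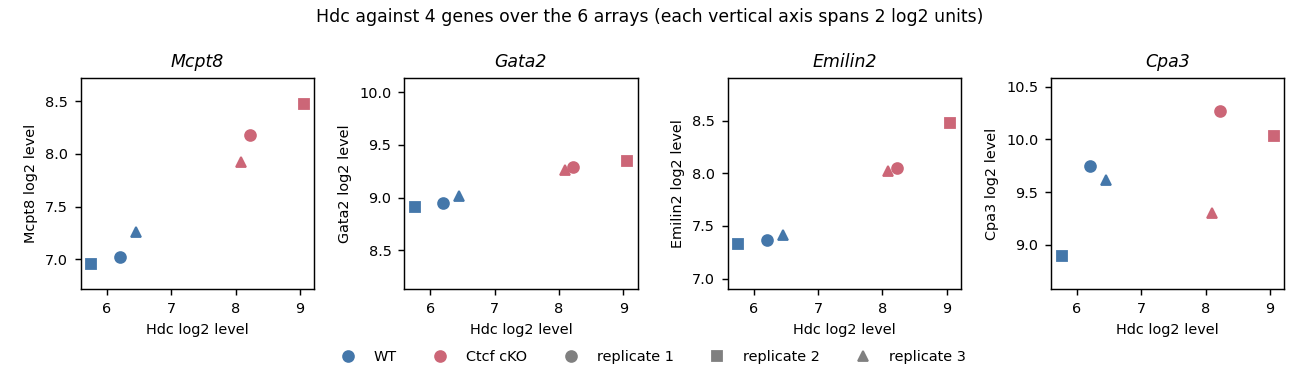
Log2 level of Mcpt8, Gata2, Emilin2 and Cpa3 (vertical axes, each spanning the same range) against the log2 level of Hdc on the same array, for 3 WT arrays (blue) and 3 Ctcf cKO arrays (red). Mcpt8, Gata2 and Emilin2 keep the order of Hdc on the arrays, whereas Cpa3 at 9.30 in knockout replicate 3 falls below WT replicates 1 and 3 at 9.75 and 9.62.

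The genes next to the set along the chromosomes were described from RefSeq gene order, with the 3 nearest measured genes on either side. Around Hdc the differences lay between 0.00 for Usp8 and 0.26 for Atp8b4, and the adjoining Slc27a2 and Gabpb1 gave 0.21 and 0.16, beside 2.32 for Hdc itself. Slc27a2 and Gabpb1 were higher in every knockout array than in every WT array, and the groups overlapped for the other neighbours of Hdc. Mcpt8 lies in the cluster of chymase and granzyme genes, where Mcpt4 precedes it and Ctsg, the cathepsin G gene of neutrophil granules, follows it. Ctsg was at 11.10, 10.48 and 11.66 in WT and 12.25, 12.40 and 12.03 in the knockout, a difference of 1.15 (SE 0.26, limma adjusted p = 0.278). Further along the cluster Gzmd differed by -0.04 and Gzmg by 0.35, and on the other side Mcpt9 by -0.27 and Mcpt2 by 0.31. The 3 highest differences drawn for this cluster were those of the adjacent genes Mcpt4, Mcpt8 and Ctsg.

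Ms4a2, at 0.14, adjoins Ms4a3, a gene of granulocyte and monocyte progenitors, which was at 7.88, 7.14 and 8.27 in WT and 9.51, 9.46 and 8.52 in the knockout (1.40, SE 0.33, limma adjusted p = 0.296). On its other side Ms4a6d differed by 0.55 (SE 0.31) with overlapping groups and Ms4a6b by -0.49 (SE 0.23). Around Cpa3 the 6 neighbours lay between -0.05 and 0.21. Of 51 different neighbours outside the set, Ctsg and Ms4a3 among them, 34 differed positively and 17 negatively, and the median was 0.12. Among all 22180 genes 12122 differed positively and 10058 negatively, with a median of 0.02. The groups did not overlap for 8 of the 51 neighbours, all higher, beside 7.96% of all genes in that direction. The test was passed by 0 of the 51, beside 0.0721% of all genes. Ctsg and Ms4a3 are counted again in the neutrophil and monocyte progenitor list.

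**Figure D4:**
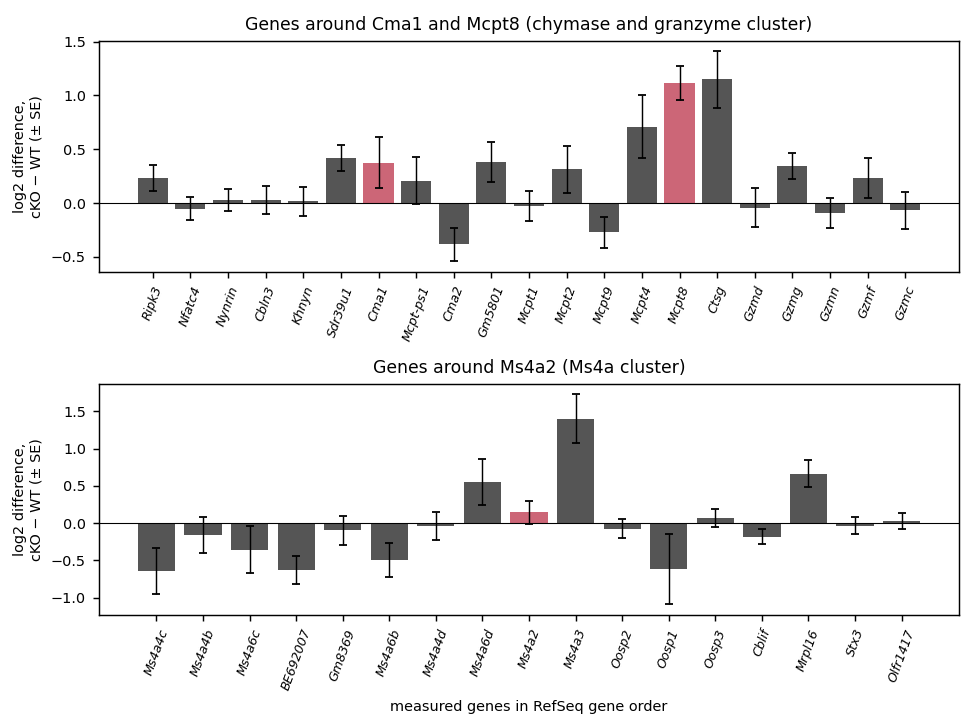
Log2 difference, knockout minus WT, with its SE for the measured genes around Cma1 and Mcpt8 and around Ms4a2, in RefSeq gene order, genes of the described set in red. Mcpt8 at 1.11 stands between Mcpt4 at 0.71 and Ctsg at 1.15, and Ms4a2 at 0.14 stands next to Ms4a3 at 1.40.

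Of 7 genes of neutrophil and monocyte progenitors 6 were higher in every knockout array than in every WT array, beside 7.96% of all genes. None of the 7 passed the limma test over all genes, beside 0.0721% of all genes, and the median difference was 0.85. At an unadjusted limma p under 0.05 there were 6 higher, beside 5.03% of all genes. This list was chosen with earlier results of these data known, so nothing is read from these shares. Their mean level, with each gene centred on its mean over the arrays, ranged from -0.76 to -0.20 in WT and from 0.09 to 0.61 in the knockout. As for Hdc and Mcpt8, knockout replicate 2 was highest and knockout replicate 3 lowest in that group, and WT replicate 2 was the lowest of all. The difference was 1.21 (SE 0.19) for the elastase gene Elane and 0.85 (SE 0.18) for the peroxidase gene Mpo. Fcnb, the gene of the list whose groups overlapped, differed by -0.11 (SE 0.33). The part of these cells in the difference of Hdc and Mcpt8 was not tested.

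Eosinophils can share a progenitor with basophils, and their markers went the other way. Differences were negative for 7 of 8 measured genes, the median was -0.28 and 0 were called, beside 0.0721% of all genes. Prg2, the major basic protein of eosinophil granules, was at 7.60, 8.41 and 7.65 in WT and 6.68, 7.41 and 6.14 in the knockout, a difference of -1.14 (SE 0.32, limma adjusted p = 0.404) without overlap. Epx, eosinophil peroxidase, was at 6.26, 6.70 and 6.98 in WT and 5.92, 5.93 and 5.84 in the knockout (-0.75, SE 0.17, limma adjusted p = 0.284), also without overlap, and Siglecf differed by 0.14 with overlap. The list's centred level ranged from 0.09 to 0.26 in WT and from -0.33 to -0.02 in the knockout. Its part in the values of the set was not tested.

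Mean levels over the maturing neutrophil list and over the B and plasma cell list were spread widely between arrays and overlapped between the groups. The 10 maturing neutrophil genes had centred levels from -0.43 to 1.00 in WT and from -0.70 to -0.08 in the knockout. Ngp, a late granule protein gene, differed by -2.44 (SE 0.52, limma adjusted p = 0.241) without overlap. S100a8 and Lcn2 each differed by -0.52 with overlap. In this list 8 differences were negative and 2 positive, the latter Mmp8 at 0.47 and Cxcr2 at 0.12. The 10 B and plasma cell genes ranged from -0.24 to 0.67 in WT and from -0.84 to -0.04 in the knockout, and all 10 differences were negative, such as -0.64 for Ighm. At an unadjusted limma p under 0.05, 5 maturing neutrophil and 7 B and plasma cell genes were lower, beside 3.08% of all genes. In both lists 0 passed the test over all genes, beside 0.0721% of all genes. Both were chosen with earlier results known, so nothing is read from these shares. In the 4 measured erythroid genes the levels ranged from -0.70 to 0.45 and from -0.24 to 0.68, in the 6 megakaryocyte genes from -0.18 to -0.01 and from -0.09 to 0.24, and in the 9 monocyte and dendritic genes from -0.12 to 0.03 and from -0.17 to 0.20. The part of each list in the values of Hdc and Mcpt8 was not tested.

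**Figure D5:**
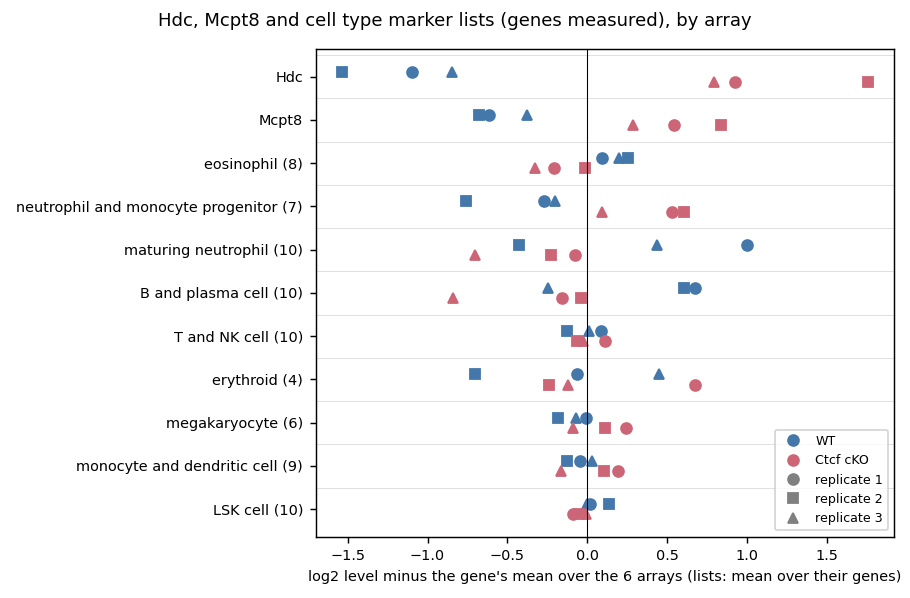
Log2 level minus the gene's mean over the 6 arrays (horizontal axis) for Hdc, Mcpt8 and the mean over each marker list, on every WT (blue) and Ctcf cKO (red) array, with the number of measured genes in brackets. WT and knockout arrays separate for Hdc, Mcpt8 and the neutrophil and monocyte progenitor list, with the knockout higher, and for the eosinophil and LSK cell lists, with the knockout lower.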

How the data were processed

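Deposited log2 values, 1 per probe set of Affymetrix Mouse Gene 2.0 ST arrays, were made by the authors by RMA with the R package oligo, per the submitters' processing notes. RMA normalizes arrays by quantiles and compresses differences of dim probe sets. Neither the summary level nor the build is given in the sources used here. Of 41345 probe sets 23521 had 1 gene symbol in GEO's platform annotation, and those with several (1814) or none (16010) were left out. The brightest probe set stood for each of 22180 genes; the 9 measured genes of the set have 1 each.

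The groups were compared by limma 3.58.1 in R 4.3.3 (lmFit, eBayes) on all 6 arrays with group as the only term, and a gene was called where its p, adjusted over all genes by Benjamini-Hochberg, lay under 0.05. Arrays were not paired by replicate number in this fit, and the labels do not say whether they were paired. Members and lists were chosen with earlier results of these data known. Picked for naming were all members and the 3 genes of each pathway list with the largest absolute difference. The 8 genes most correlated with Hdc among brighter genes were added. The 3 brightest of each marker list and the 3 nearest neighbours were also picked, but only some of these are named. Other genes named are list members given as examples after their values were seen. The test was checked on simulated data of 22180 genes with 200 changed, in 5 runs. Recovery was 20.8% at a log2 change of 0.5, 94.8% at 1 and 99.8% at 2, and 6.54% of calls were false. These shares belong to that setting, with 200 genes changed, whereas 16 genes were called on the 6 arrays. The share of genes recovered on the arrays themselves was not tested.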

Additional observations from a re-analysis of the deposited data

How the results depend on the processing

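Hdc kept its direction under all 13 alternatives that refit it, with a log2 difference from 2.02 to 2.50, and Mcpt8 likewise, from 0.97 to 1.25. Both had to keep it when an array was left out, because their groups do not overlap. The count of called genes among the 9 measured was 1. It was 2, with Mcpt8 added, under eBayes with trend and robust settings (adjusted p = 0.0425), among the brighter genes alone (adjusted p = 0.0443), with centring on them (adjusted p = 0.0490) and at a threshold of 0.1. It was 0 with the replicate number as a block, where the adjusted p of Hdc was 0.0959, and between 0 and 1 with 1 array left out. The labels do not say whether equal replicate numbers pair the arrays. Correlations of deviations from the group means were 0.47, 0.03 and -0.25 in same-numbered arrays and from -0.38 to 0.40 in the others. With so few arrays these values cannot settle whether the arrays were paired.

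Over all genes limma called 16, and 25 with trend and robust settings, 26 at a threshold of 0.1, 7 with the replicate block and between 0 and 8 with 1 array left out. The count was 0 without knockout replicate 1, where 1725 genes had an unadjusted p under 0.05. The median difference of the set was 0.38, became 0.78 over the 4 brighter genes and lay between 0.12 and 0.57 with 1 array left out. Brightness was taken over both groups. Hdc, with a mean of 6.14 in WT and 8.45 in the knockout, passed the cut of 6.29 only through its knockout arrays. Nothing is therefore read from the 0.78 or from the count among the brighter genes alone. Of the single genes of the set Tpsb2 reversed, to -0.067 without knockout replicate 1, and its values with 1 array left out reached 0.253. Why calls were lost was not tested. The number of arrays limits precision, and levels near background cannot be recognised without detection calls.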
